A study of Gallus gallus with 2 samples.

Results

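A set of 8 genes known for their roles in neurons and in the myelin around axons were followed through hair cell (HC) loss in the chick basilar papilla (BP), the auditory epithelium of birds. They are *NEFL*, *NEFM*, *TUBB3*, *STMN2*, *SNAP25*, *NTRK3*, *PMP22* and *MBP*, chosen by name and matched by symbol, and all 8 were found among the 23842 genes of the tables. The post-SM6 library comes from BP explants exposed to streptomycin (SM), an antibiotic that kills HCs, for 48 h and then kept 6 h without it. The SM0 library comes from BP explants collected before SM exposure. Both were made from 50 pooled BPs of male Momiji chicks at posthatch day 1, cleaned of surrounding tissue with thermolysin, and GEO's labels give HCs and supporting cells (SCs) as the cells of SM0 and SCs alone as those of post-SM6. With 1 library per time point there are no replicates, so no difference below has an error or a p-value. The effects of SM, of time in culture and of the chicks pooled cannot be told apart.

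In an axon, neurofilaments are assembled from light, medium and heavy chains and set the calibre of the fibre, while microtubules built of tubulin carry transport and are regulated by stathmins. At the nerve ending, SNAP25 forms, with a syntaxin and a synaptobrevin, the SNARE complex that fuses vesicles with the membrane. Neurotrophins such as NTF3 keep cochlear neurons alive through Trk receptors. Schwann cells and oligodendrocytes wrap axons in myelin, whose compact layers contain MBP and, in peripheral nerve, PMP22. The ganglion that innervates the BP lies outside the sensory epithelium, and its fibres reach the HCs. Several of these genes are not restricted to neurons or glia: antibodies to TUBB3 also label avian HCs, and PMP22 is made by many epithelia and fibroblasts.

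Levels are in TPM, in which each gene's reads are corrected for transcript length and expressed relative to those of all genes. TPM sum to 999999 at post-SM6 and 999997 at SM0, and TPM carry no depth. Read counts were not used here, so no counting error is given. Changes are log2 ratios of TPM, post-SM6 over SM0, with 0.1 added to both values, which makes the changes of scarce genes look smaller than they are. A gene is called higher or lower where it has at least 1 TPM in either library and changes by at least 1.3-fold. The study used the same fold on normalized read counts. Its further steps, among them limits on p-value and read counts, were not applied here, so these calls are not its differentially expressed genes. Of 13321 genes with at least 1 TPM in either library, 23.3% were lower and 23.9% higher by 1.3-fold at post-SM6. By 2-fold, 7.83% were lower and 9.56% higher. The median log2 change of these 13321 genes was -0.02. These shares and this median are the background for the counts and medians of the lists below.

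Of the 8 genes, 6 reached 1 TPM. Among these, *NEFL*, *NEFM*, *TUBB3*, *SNAP25* and *PMP22* were lower at post-SM6 by at least 1.3-fold, *MBP* was not, and none was higher. Only *NEFL*, *NEFM* and *SNAP25* were lower by at least 2-fold. *SNAP25* reached 1 TPM at SM0 alone, so its passing the minimum already favoured a lower value at post-SM6, and these counts describe 6 genes and are no test. *STMN2* and *NTRK3* stayed below 1 TPM in both libraries. The summed level of the 8 genes was 161 TPM at post-SM6 and 382 TPM at SM0, and *NEFL*, *NEFM* and *PMP22* made up 76.9% of the sum at post-SM6 and 87.8% at SM0.

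**Figure D1:**
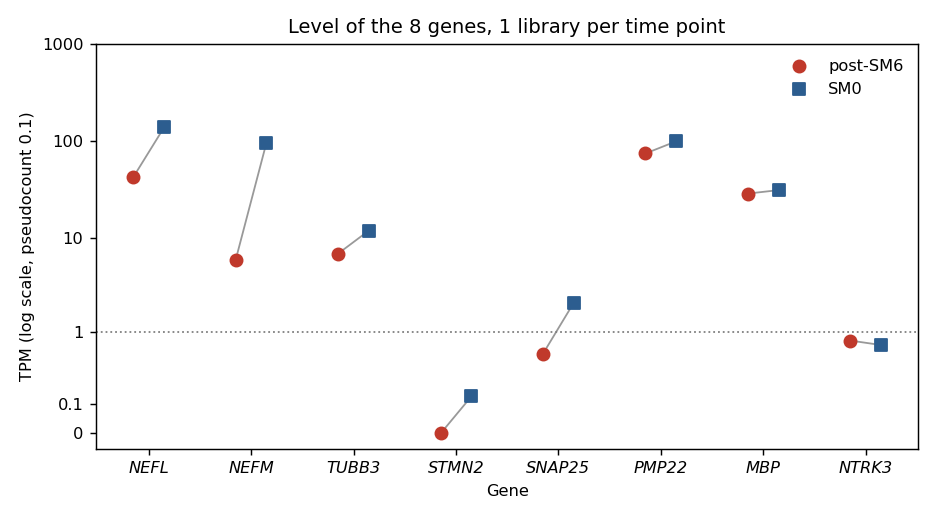
TPM of the 8 genes on a log scale (log2 of TPM plus 0.1), with 1 circle for the post-SM6 library and 1 square for the SM0 library of each gene; the dotted line is at 1 TPM. *NEFM* shows the widest gap, 6.00 TPM at post-SM6 against 96.8 TPM at SM0, while *STMN2* and *NTRK3* lie below the line in both.

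The levels did not follow the shared neuronal and glial names. At SM0 the order was *NEFL*, *PMP22*, *NEFM*, *MBP*, *TUBB3*, *SNAP25*, *NTRK3* and *STMN2*, and at post-SM6 it was *PMP22*, *NEFL*, *MBP*, *TUBB3*, *NEFM*, *NTRK3*, *SNAP25* and *STMN2*. Without replicates it cannot be said which neighbours in these orders differ. *STMN2*, among the most abundant transcripts of differentiated neurons, was listed at 0 TPM at post-SM6 and 0.14 TPM at SM0. Neuronal genes named after their values were seen were near 0 as well, with *ELAVL2* at 0.03 TPM at post-SM6 and 0.08 TPM at SM0, and *NEUROG1* listed at 0 in both. Other neuronal genes were not: *ELAVL4* had 17.5 TPM at post-SM6 and 17.7 TPM at SM0, and *GAP43* had 47.2 and 175 TPM. Of 13 matched neuronal transcription factors and RNA-binding proteins, 4 were below 1 TPM in both libraries, as were 3 of 26 matched neuronal cytoskeleton and axon genes. Of genes that mark myelinating glia, *MOG* of oligodendrocyte myelin had 0.28 TPM at post-SM6 and 0.33 TPM at SM0. *POU3F1*, a factor of promyelinating Schwann cells, was listed at 0 at post-SM6 and 0.10 TPM at SM0. Markers of neurons thus ranged from 0 to high levels, and the values below are levels of each gene in the whole BP. Which cells the RNA came from was not tested.

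*NEFL* encodes the light chain, on which the other chains depend for assembly. Its level was 42.8 TPM at post-SM6 and 139 TPM at SM0, a log2 change of -1.69 and a 3.24-fold lower level. It ranked 3117th of all genes at post-SM6 and 939th at SM0. *NEFM*, which encodes the medium chain, had 6.00 TPM at post-SM6 and 96.8 TPM at SM0, a log2 change of -3.99 and a 16.1-fold lower level. Only 70 of the 13321 genes, or 0.525%, had a lower log2 change than *NEFM*, while 490, or 3.68%, had a lower one than *NEFL*. The pair therefore parted: *NEFL* TPM was 7.14 times that of *NEFM* at post-SM6 and 1.43 times at SM0. No other gene lies between *NEFL* and *NEFM* in the RefSeq table of GRCg7b, where they are on the same chromosome.

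The remaining neurofilament class genes were low. *NEFH*, the heavy chain of mature large axons, was below 1 TPM, with 0.12 TPM at post-SM6 and 0.61 TPM at SM0. *INA*, which encodes alpha-internexin, had 3.60 TPM at post-SM6 and 2.40 TPM at SM0, a log2 change of 0.57. *PRPH*, which encodes peripherin of peripheral neurons, had 9.85 and 7.55 TPM. At 0.379, its log2 change was just past the 1.3-fold limit. *INA* and *PRPH* were thus called higher where *NEFL* and *NEFM* were lower.

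**Figure D2:**
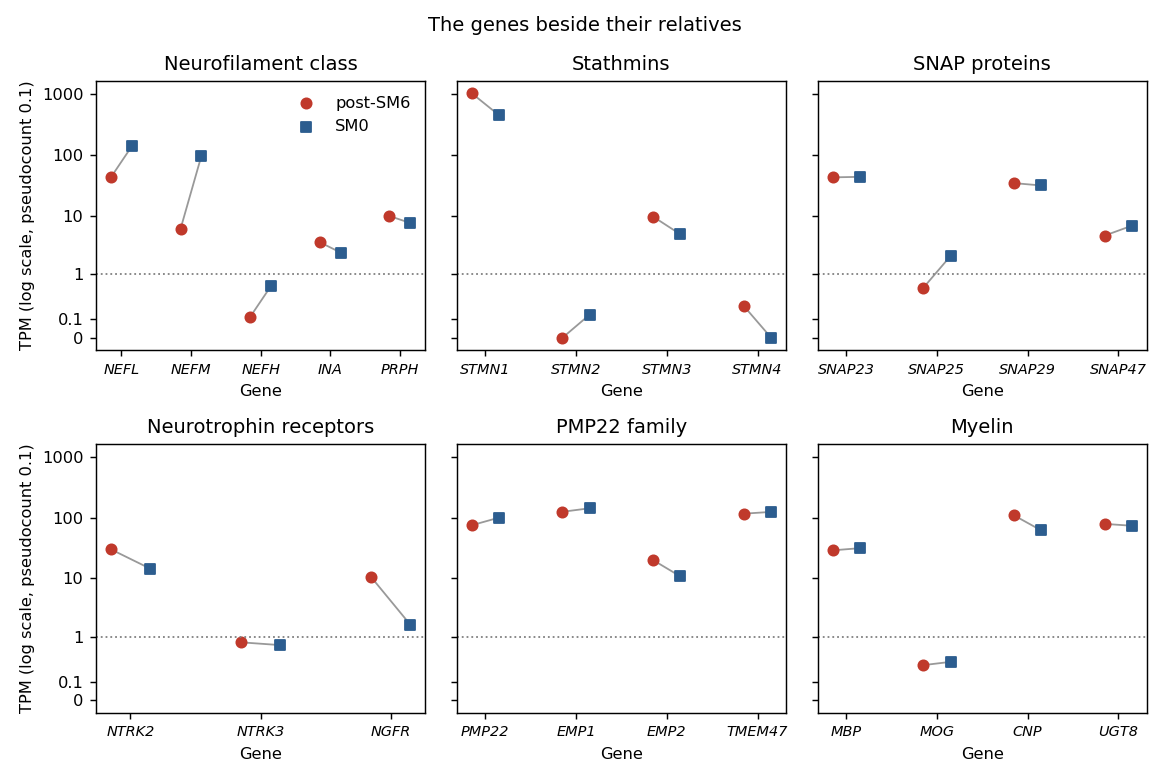
TPM on a log scale (log2 of TPM plus 0.1) of the 8 genes except *TUBB3*, beside their relatives, in 6 panels. Circles are post-SM6, squares are SM0 and the dotted line is at 1 TPM. *NEFL* and *NEFM* were lower at post-SM6 where *INA* and *PRPH* were not, and *NTRK2* and *NGFR* were higher where *NTRK3* remained below 1 TPM.

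*TUBB3* encodes a beta-tubulin of neurons and avian HCs. It had 6.94 TPM at post-SM6 and 12.0 TPM at SM0, a log2 change of -0.79, and 10.7% of genes had a lower change. *TUBB2A* and *TUBB2B*, also abundant in developing neurons, had 160 and 756 TPM at post-SM6 against 241 and 996 TPM at SM0, with log2 changes of -0.59 and -0.40. Because tubulin genes resemble each other in sequence, reads could be divided among them, and their values are uncertain. *STMN2* binds tubulin in growth cones, and with 0 TPM at post-SM6 and 0.14 TPM at SM0 no change can be given for it. *STMN1*, a stathmin of dividing cells and young neurons, had 1030 TPM at post-SM6 and 450 TPM at SM0, a log2 change of 1.19, and *STMN3* had 9.61 and 4.88 TPM, a log2 change of 0.96. *STMN4* was listed at 0.23 TPM at post-SM6 and at 0 at SM0.

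Of 26 other neuronal cytoskeleton and axon genes matched in the tables, 23 were at 1 TPM or more. Of these 23, 12 were lower and 7 higher by 1.3-fold at post-SM6, against 23.3% and 23.9% of all genes. The median log2 change was -0.40 in the list and -0.02 over all genes. *UCHL1*, a ubiquitin hydrolase abundant in neurons, had 880 TPM at post-SM6 and 1880 TPM at SM0. The growth cone protein gene *GAP43* had 47.2 TPM at post-SM6 and 175 TPM at SM0, the largest decrease of the list with a log2 change of -1.89. *KIF1A*, the motor of synaptic vesicle precursors, had 57.5 and 159 TPM, and its log2 change was -1.46. *DCLK1* (42.9 TPM at post-SM6 and 106 TPM at SM0) and *MAP2* (32.4 and 66.0 TPM), which both bind microtubules, had log2 changes of -1.31 and -1.02. These transcripts were far above the levels of *STMN2* and *NEFH* in both libraries.

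Of the 13 neuronal transcription factors and RNA-binding proteins, 9 were at 1 TPM or more, with a median log2 change of -0.28. Among the 9, 4 were lower and 2 higher, against 23.3% and 23.9% of all genes. Of these, 3 of the 4 lower genes reached 1 TPM at SM0 alone and 1 of the 2 higher genes at post-SM6 alone, so the minimum itself favoured the direction of those calls. *NEUROD1*, a factor of differentiating cochlear neurons, had 0.53 TPM at post-SM6 and 5.60 TPM at SM0, a log2 change of -3.18. *MYT1* had 0.55 and 6.71 TPM, a log2 change of -3.39, and *POU4F1*, a factor of sensory neurons, 0.22 and 1.93 TPM, a log2 change of -2.67. In the other direction stood *INSM1*, a factor of newborn neurons and neuroendocrine cells, with 12.9 TPM at post-SM6 and 1.49 TPM at SM0, a log2 change of 3.04. *CELF4* had 1.83 and 0.15 TPM, a log2 change of 2.95. *ISL1*, which is also made in the BP epithelium, had 103 and 112 TPM, and the neuronal RNA-binding protein gene *ELAVL4* had 17.5 and 17.7 TPM.

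*SNAP25* had 0.56 TPM at post-SM6 and 2.1 TPM at SM0, a log2 change of -1.74, and 3.54% of genes had a lower change. Adding 1 instead of 0.1 TPM gave a log2 change of -0.99, so its size depends on how low values are handled. The relatives that serve membrane fusion in most cells were more abundant in both libraries. *SNAP23* had 42.8 TPM at post-SM6 and 43.7 TPM at SM0, *SNAP29* had 34.4 and 31.5 TPM, and *SNAP47* had 4.66 and 6.82 TPM. Of 8 such ubiquitous SNARE genes matched, all 8 were at 1 TPM or more, with a median log2 change of 0.05. Among the 8, 1 was lower and 2 were higher, against 23.3% and 23.9% of all genes. *STX3* (13.3 TPM at post-SM6 and 7.04 TPM at SM0) and *STX7* (34.3 and 19.2 TPM) were the 2 higher genes.

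The vesicle release genes were largely lower. Of 29 matched, 24 were at 1 TPM or more, with a median log2 change of -1.12. Among the 24, 15 were lower and 3 higher by 1.3-fold, against 23.3% and 23.9% of all genes. By at least 2-fold, 14 of the 24 were lower, against 7.83% of all genes. Of the 15 genes lower by 1.3-fold, 2 reached the minimum at SM0 alone. HCs also release vesicles and use several of these genes. *SNCG*, which encodes gamma-synuclein of sensory neurons, had 2.56 TPM at post-SM6 and 100.4 TPM at SM0, a log2 change of -5.24, the largest decrease of the list. *DNM1*, the dynamin that retrieves vesicle membrane, had 7.82 and 62.0 TPM, and *NAPB*, which helps to take SNARE complexes apart, 3.81 and 21.7 TPM. The log2 changes of *DNM1* and *NAPB* were -2.97 and -2.48.

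The priming factor gene *UNC13A* had 0.53 TPM at post-SM6 and 7.81 TPM at SM0, a log2 change of -3.65. *RIMS2*, an active zone scaffold, had 0.52 and 4.43 TPM, a log2 change of -2.87. *VAMP2*, the synaptobrevin that pairs with SNAP25, had 1.83 and 8.22 TPM, a log2 change of -2.11, and the vesicle membrane protein gene *SYNGR1* had 58.3 and 163 TPM, a log2 change of -1.48. Higher genes of the list included *VAMP1* (5.50 TPM at post-SM6 and 3.32 TPM at SM0) and the gene that RefSeq calls *SYP* and the tables call *SYNPR* (17.1 and 4.21 TPM).

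Neuronal channels and transmitter receptors were scarce. Of 20 listed genes, 12 were at 1 TPM or more in either library, with a median log2 change of -1.18. Among the 12, 9 were lower and 0 higher, against 23.3% and 23.9% of all genes, and 5 of the 9 reached 1 TPM at SM0 alone. The summed level of the 20 genes was 16.7 TPM at post-SM6 and 44.0 TPM at SM0. The glutamate receptor gene *GRIA2* had 0.62 TPM at post-SM6 and 5.19 TPM at SM0, a log2 change of -2.88. *GRIN1*, *KCNC1* and *KCNA1* were at most 0.48 TPM at post-SM6 and between 1.04 and 1.41 TPM at SM0. *KCNA2* had 0.99 TPM at post-SM6 and 0.43 TPM at SM0, just under the minimum, so it was not called higher.

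*NTRK3* encodes TrkC, the receptor of NTF3. It had 0.80 TPM at post-SM6 and 0.71 TPM at SM0, a difference of 0.09 TPM below the level at which genes were called. Among other neurotrophin receptors, *NTRK2*, the receptor of BDNF, had 30.1 TPM at post-SM6 and 14.5 TPM at SM0, a log2 change of 1.05. *NGFR*, the low-affinity receptor of all neurotrophins, had 10.4 TPM at post-SM6 and 1.65 TPM at SM0, a log2 change of 2.59. The ligands of these receptors differed from each other. *BDNF*, which HCs make, had 15.5 TPM at post-SM6 and 71.1 TPM at SM0, a log2 change of -2.19. *NTF3* had 4.90 and 3.83 TPM and did not pass 1.3-fold.

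In the whole list of 15 neurotrophin and GDNF family ligands and receptors, 11 were at 1 TPM or more, with a median log2 change of 0.35. Among the 11, 3 were lower and 5 higher, against 23.3% and 23.9% of all genes. The minimum was reached at SM0 alone by 1 of the 3 and at post-SM6 alone by 1 of the 5. *SORT1*, a sorting receptor that binds neurotrophin precursors, had 82.1 TPM at post-SM6 and 56.6 TPM at SM0. *RET*, the signalling receptor of the GDNF family, had 15.6 and 24.9 TPM, a log2 change of -0.68. The GDNF family ligands *ARTN* (0.96 TPM at post-SM6 and 2.18 TPM at SM0) and *NRTN* (2.08 and 0.99 TPM) had log2 changes of -1.10 and 1.00.

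*PMP22* spans the membrane of compact peripheral myelin and is also made outside nerves. Its level was 75.0 TPM at post-SM6 and 100.01 TPM at SM0, a log2 change of -0.41 and a 1.33-fold lower level, just past the limit, and 21.5% of genes had a lower change. Of its relatives, *EMP1* had 125 TPM at post-SM6 and 143 TPM at SM0, and *TMEM47* had 116 and 124 TPM, and neither passed 1.3-fold. *EMP2* had 19.97 and 10.7 TPM, a log2 change of 0.89. The 3 relatives matched were all at 1 TPM or more, with a median log2 change of -0.10. Among the 3, 0 were lower and 1 was higher, against 23.3% and 23.9% of all genes.

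*MBP* encodes the protein that holds the cytoplasmic faces of myelin together. It had 28.99 TPM at post-SM6 and 31.5 TPM at SM0, a log2 change of -0.12, and ranked 4352nd and 4140th of all genes. In mammals the *MBP* locus also gives Golli transcripts outside myelin, and RefSeq lists 13 transcripts for the chick gene, which a value per gene does not separate. *MBP* and *PMP22* were thus far above the level of *MOG* in both libraries.

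Of 19 other myelin and axoglial junction genes matched, 15 were at 1 TPM or more, with a median log2 change of 0.33. Among the 15, 5 were lower and 7 higher, against 23.3% and 23.9% of all genes. The minimum was reached at SM0 alone by 3 of the 5 and at post-SM6 alone by 2 of the 7. *CNP*, a myelin phosphodiesterase, had 109 TPM at post-SM6 and 61.6 TPM at SM0, a log2 change of 0.82. *UGT8*, which makes galactolipids of myelin, had 79.0 and 73.6 TPM. The gene listed as *PMP2*, which RefSeq calls *FABP9*, had 48.0 TPM at post-SM6 and 8.28 TPM at SM0, a log2 change of 2.52. The membrane raft protein genes *MAL* (2.44 TPM at post-SM6 and 0.32 TPM at SM0) and *PLLP* (1.48 and 0.25 TPM) had log2 changes of 2.60 and 2.17. *GLDN*, which clusters channels at nodes of Ranvier, had 0.91 and 3.75 TPM, a log2 change of -1.93.

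Of 14 Schwann cell and glial lineage genes matched, 11 were at 1 TPM or more, with a median log2 change of -0.10. Among the 11, 4 were lower and 3 higher, against 23.3% and 23.9% of all genes. All 3 higher genes reached 1 TPM at post-SM6 alone. *SOX10*, a factor of glia that the inner ear epithelium also makes, had 267 TPM at post-SM6 and 211 TPM at SM0. *FABP7* had 108 and 182 TPM, and *ERBB3*, the neuregulin receptor of Schwann cells, had 17.9 and 31.7 TPM, with log2 changes of -0.75 and -0.82. *NRCAM* had 25.2 and 35.6 TPM. Higher at post-SM6 were *FOXD3*, a factor of the neural crest, with 4.33 TPM against 0.29 TPM at SM0, *GFAP*, a filament of astrocytes and non-myelinating Schwann cells, with 5.49 against 0.90 TPM, and *CDH19* with 1.79 against 0.92 TPM.

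**Figure D3:**
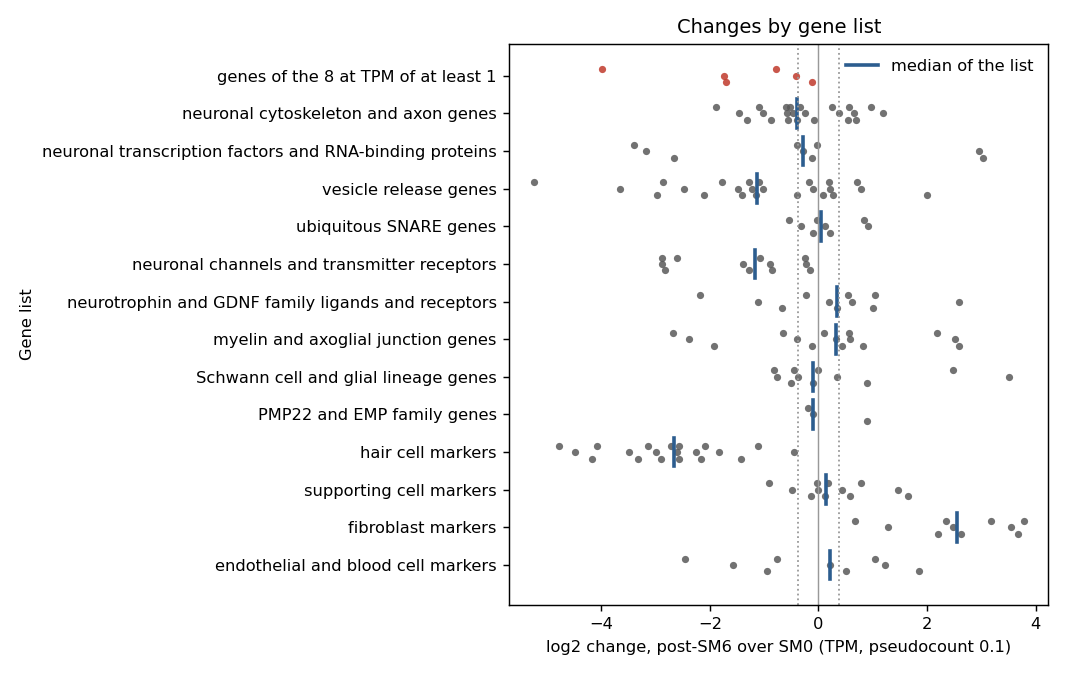
log2 change of TPM (pseudocount 0.1), post-SM6 over SM0, of each gene with at least 1 TPM in either library, by list; the top row holds the 6 such genes of the 8, vertical bars are list medians, and dotted lines are at 1.3-fold. Medians run from -2.66 for HC markers to 2.55 for fibroblast markers.

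Markers of other cell types were compared between the same libraries. Calls were again by 1.3-fold, against 23.3% lower and 23.9% higher of all genes. All 20 HC markers were lower, with a median log2 change of -2.66 and a summed level of 340 TPM at post-SM6 and 2969 TPM at SM0 (252 and 1004 TPM without *OCM*), and none was at 0 in either library. *MYO15A* (2.16 TPM at post-SM6 and 38.2 TPM at SM0) and *TMC2* (2.17 and 62.0 TPM) had log2 changes of -4.08 and -4.77. The log2 changes of these markers ran from -4.77 to -1.12, apart from *MYO6* at -0.45. A lower change than that of *NEFM* was found in 4 of the 20 markers, than that of *NEFL* or *SNAP25* in 17, and than that of *TUBB3* in 19, while all 20 had a lower change than *PMP22* and *MBP*. The part of HC loss in the lower levels of the 5 genes was not tested. From the TPM of such bulk samples alone, fewer cells of a type and less RNA per cell cannot be told apart. Apart from RNA, the study counted myosin VIIa-positive cells in sections and reported virtually no HCs over a span that includes post-SM6.

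All 10 fibroblast markers were higher, against 23.9% of all genes, with a median log2 change of 2.55. Their summed level was 400 TPM at post-SM6 and 47.7 TPM at SM0, and none was at 0. *COL1A1* had 171 and 14.6 TPM. *PMP22*, which fibroblasts also make, was lower in the same library, and the part of this RNA in the levels of the 8 genes was not tested. Of 12 SC markers, 2 were lower and 5 higher, against 23.3% and 23.9% of all genes, with a median log2 change of 0.14. Of 10 endothelial and blood cell markers, 9 were at 1 TPM or more, with a median of 0.22. Among the 9, 4 were lower and 4 higher, against the same shares. Of the lower HC markers 3 reached 1 TPM at SM0 alone, and of the higher markers 1 of fibroblasts and 2 of endothelial and blood cells did so at post-SM6 alone.

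**Figure D4:**
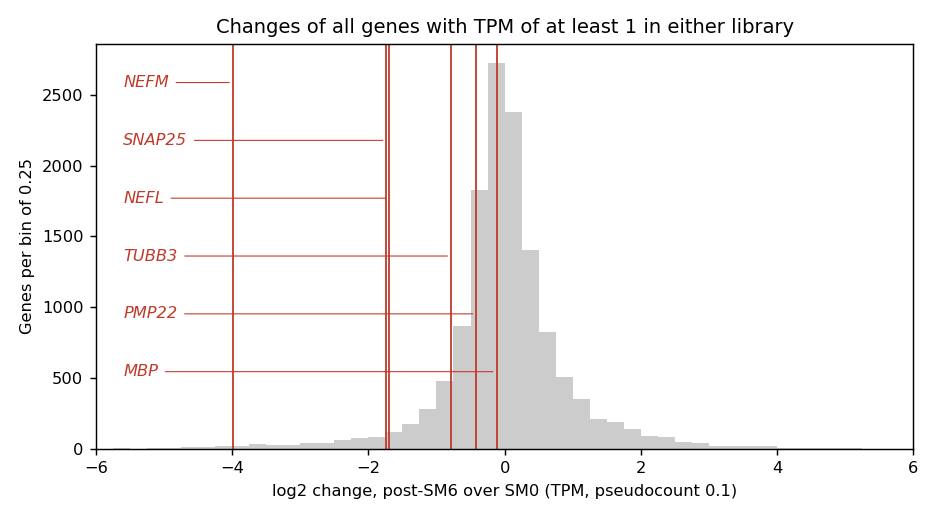
Number of genes per bin of 0.25 in log2 change of TPM (pseudocount 0.1), post-SM6 over SM0, for the 13321 genes with at least 1 TPM in either library, of which 12 lie outside the axis. Lines mark the 6 of the 8 genes at that level; *NEFM* at -3.99 is in the lower tail and *MBP* at -0.12 is near the centre.

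The genes nearest to *NEFM* in both levels, by Euclidean distance over log2(TPM + 0.1) in the 2 libraries, were *TRIM36* (6.54 TPM at post-SM6 and 86.3 TPM at SM0, distance 0.20), *LRTOMT* (7.84 and 92.1 TPM, distance 0.39) and *SLC7A14* (7.94 and 96.4 TPM, distance 0.40). For *NTRK3*, the only one of the 8 genes with a higher value at post-SM6, the nearest were *LOC430443*, *LOC768418* and *LOC100859067*, at distances between 0.037 and 0.054. With 2 libraries, likeness rests on 2 values per gene.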

How the data were processed

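RNA-seq of BP explants at post-SM6 and SM0 was analysed, with 1 library of 50 pooled BPs each. According to the study's methods and the labels, the authors discarded ribosomal reads (Bowtie2 2.1.0), mapped the remainder to GRCg6a (STAR 2.7.1a) and derived TPM per gene (RSEM 1.3.0). The deposited TPM are scaled to one sum per library and keep no depth, so a loss of abundant transcripts raises the share of the rest. Read counts were not used here, and no counting error is given. Genes were matched by the tables' symbol, or, for 4 of 214 list symbols, by the current RefSeq symbol (GRCg7b); 198 list symbols were found.

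The 8 genes, the 13 lists and the tests were chosen with earlier results of these data known. From each list, the 6 genes with the largest absolute change and the 2 most abundant could be named, with close relatives of the 8 genes. *VAMP1*, *SYP*, *MOG*, *NTF3*, *ELAVL2*, *NEUROG1*, *POU3F1*, *KCNA2* and the families in the closing section were named after their values were seen. The alternatives were pseudocounts of 1 and 0.01, 2 other scalings, TPM minimums of 5 and none, and a fold of 2. The code was tested on simulated data. Python 3.11.15, numpy 2.4.6, pandas 2.3.3 and matplotlib 3.10.9 were used. No sequence is shown, as the tables used hold none. Some listed genes are not reported here by name.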

Additional observations from a re-analysis of the deposited data

How the results depend on the processing

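The direction of a gene's change was not put to a test by these alternatives. A pseudocount, a minimum or a fold cannot reverse it, and the 2 other scalings shifted changes only slightly. The log2 changes of *NEFL*, *NEFM*, *TUBB3*, *PMP22* and *MBP* kept their side of 1.3-fold with pseudocounts of 1 and 0.01 and under both other scalings, with *PMP22* nearest the limit at -0.38 after median-ratio scaling, and the log2 change of *SNAP25* was -0.99 with a pseudocount of 1. Of 298 alternative values, 267 moved by less than 1.3-fold (a log2 value) or by at most 1.5 times (a count). With a fold of 2, 3 of the 8 genes were lower, beside 7.83% lower and 9.56% higher of all genes. At that fold the counts of lower and higher genes were 5 and 1 for the neuronal cytoskeleton, 3 and 3 for myelin, and 0 and 0 for ubiquitous SNARE genes. They were 0 lower for glial lineage genes, 1 higher for vesicle release genes, 2 higher for neurotrophin genes, 0 higher for relatives of *PMP22*, 0 and 2 for SC markers, and 2 lower for endothelial and blood cell markers. At a minimum of 5 TPM, 2179 of all 10508 genes were lower and 2162 higher by 1.3-fold. In the lists, 3 channel genes were lower with a median of -2.88, and 2 myelin genes were lower and 3 higher. Higher were also 1 transcription factor gene and 1 glial gene, and endothelial and blood cell markers had 0 higher and a median of -0.96. With no minimum, 5134 of all 23842 genes were lower and 4683 higher. In the lists, 7 transcription factor genes were then lower, 6 vesicle release, 5 glial and 2 channel genes were higher, and the median of channel genes was -0.64. That median was -0.68 with a pseudocount of 1. Under each of the 2 other scalings 1 channel gene, *KCNA2*, was called higher, as its level at post-SM6 then passed 1 TPM. Its log2 change was already 1.04 in the main analysis. The causes of the other shifts were not tested. Those scalings moved the median of all genes to 0.01 and -0.05. TPM carry no depth, and without replicates no difference can be set against the spread between pools of explants.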

Other observations

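*NEFL* and *NEFM* belong to the intermediate filaments, and *TUBB3* to the beta-tubulins. Genes of both families were looked up after the values of the 8 genes were seen. The 10 intermediate filament genes were chosen by name and leave out keratins and lamins. Among these 10 genes, vimentin (*VIM*), the filament of mesenchyme and of many SCs, had 1173 TPM at post-SM6 and 1290 TPM at SM0. It made up 91.1% of the summed level of the 10 genes at post-SM6 and 82.3% at SM0. *NEFL* made up 3.33% at post-SM6 and 8.85% at SM0, and *NEFM* 0.466% and 6.18%. *SYNM*, which encodes synemin, had 34.6 TPM at post-SM6 and 18.2 TPM at SM0, and desmin (*DES*), the filament of muscle, had 2.19 and 0.40 TPM. Among 7 beta-tubulin genes, *TUBB3* made up 0.261% of the summed level at post-SM6 and 0.375% at SM0, while *TUBB4B* made up 44.0% and 38.9%. *TUBB1* was the only one of the 7 that was higher at post-SM6, with 3.22 TPM against 2.11 TPM at SM0. Reads can be shared between these similar genes, so the small shares are uncertain.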
